A study of Mus musculus with 5 samples.

Results

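The 10 genes described here set 2 opposing signals on contractile tissue: endothelin, which contracts it, and nitric oxide with cyclic GMP (cGMP), which relaxes it. They were chosen by name and not by a rule on their values, though with earlier results of these data known. They come from a table of RNA-seq counts whose 56941 rows are Ensembl gene ids. The rows were matched to mouse gene symbols, and Edn1, Edn3, Ednra, Ece1, Nos1, Nos2, Nos3, Gucy1a1, Gucy1b1 and Prkg1 were each found once. RNA came from the iridocorneal angle, the ring of tissue between iris and cornea through which aqueous humor leaves the eye, of untreated mice aged 12 months, labelled as male and female in every pool. One group, in 3 pools, was DBA/2J, an inbred strain that develops pigment dispersion and glaucoma and carries a nonsense allele of Gpnmb and the b allele of Tyrp1. The control group, in 2 pools, was DBA/2J-Gpnmb+/SjJ, called Gpnmb+ below, which has a functional Gpnmb allele on the same background and shares the Tyrp1 allele, so the control eyes also carry a pigment gene mutation. The labels give 3 mice per pool, but the library names list 3 animals for each DBA/2J pool and 2 for each Gpnmb+ pool. The iris and ciliary body were dissected away, but by the study's methods remnants of both stayed on the ring, and RNA of ciliary epithelium was present in every pool at levels that differed between the groups.

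Endothelins are short peptides cut from longer precursors. Endothelin-converting enzyme makes the final cut, and the mature peptide acts on 2 G protein-coupled receptors, of which the type A receptor drives contraction and the type B receptor both clears endothelin and, on endothelium, releases nitric oxide. Nitric oxide synthases make nitric oxide from arginine, soluble guanylate cyclase answers it by making cGMP, and cGMP-dependent protein kinase lowers calcium and the force of contraction. In the outflow tissue, contraction of the trabecular meshwork is known to raise resistance to aqueous outflow, and nitric oxide to lower it.

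The endothelin sequences are shown first because the results turn on one ligand, Edn3, and the mature peptides of the ligands differ mostly in their first part. Each run is the coding sequence of the mature peptide, 63 bases for 21 residues, read 5′ to 3′ from the GRCm39 reference (strain C57BL/6J) on the plus strand within the second coding exon. Capitals mark bases that differ from Edn1.
Edn1: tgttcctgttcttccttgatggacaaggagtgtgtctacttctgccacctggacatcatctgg
Edn2: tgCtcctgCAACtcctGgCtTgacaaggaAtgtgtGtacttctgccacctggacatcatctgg
Edn3: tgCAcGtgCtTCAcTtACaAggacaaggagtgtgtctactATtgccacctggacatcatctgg
They lie at chr13:42457125-42457187 for Edn1, chr4:120019148-120019210 for Edn2 and chr2:174603542-174603604 for Edn3. Edn3 differed from Edn1 at 13 bases and 6 residues, and Edn2 at 10 bases and 3 residues. In Edn3, all but 2 of the changed bases lay in the first part of the run, and the stretch after its last changed base was the same in all 3 genes. The precursors are 202, 175 and 214 residues long for Edn1, Edn2 and Edn3.

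Summed counts per pool ran from 43900661 to 49837758. Gpnmb followed the labels, with 1946 to 2234 counts per DBA/2J pool against 110568 and 129659 per Gpnmb+ pool. Values below are CPM, each gene's count per 1000000 counts, on library sizes scaled by the trimmed mean of M-values, and a positive log2 fold change means a higher level in DBA/2J. A gene was called changed where edgeR's quasi-likelihood test gave a Benjamini-Hochberg adjusted p no higher than 0.05 and the fold change reached 1.5. By this rule 0.796% of the 19713 genes tested were called, 0.502% higher and 0.294% lower in DBA/2J, and at an unadjusted p of at most 0.05 alone the share was 15.9%. The DESeq2 Wald test called 4.7% at the same thresholds. Pools of the 2 genotypes did not overlap for 34.5% of genes, and the median log2 fold change of all genes was -0.017. The pools also differed in sex-linked RNA, with 596, 0 and 2417 counts of Xist in DBA/2J against 7843 and 9152 in Gpnmb+, and 3608, 4168 and 1567 counts of Ddx3y against 0 and 4. The Gpnmb+ pools, almost without RNA of the Y-linked Ddx3y, and DBA/2J pool 2, without RNA of the female-specific Xist, thus went against a label of both sexes, and sex and genotype cannot be told apart. Pools are the replicates, so the tests set the genotype difference against the spread between pools, not between mice. In edgeR that spread is estimated with information shared across genes.

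Of the 10 genes, 1 was called, beside 0.796% of all genes tested. This was Edn3, which encodes endothelin 3 and was 1.82-fold lower in DBA/2J. The other 9 genes did not pass the test, 5 of them with a higher and 4 with a lower mean level in DBA/2J by the fitted fold change. Edn3 was also the single gene of the 10 with an unadjusted p of at most 0.05, beside 15.9% of all genes. It was the single gene of the 10 whose pools did not overlap between genotypes, beside 34.5% of all genes. The median log2 fold change of the 10 genes was -0.01, close to that of all genes. For 6 of the 9 genes not called (Ednra, Ece1, Nos1, Gucy1a1, Gucy1b1 and Prkg1), the 95% interval of the fold change lay within 1.5-fold in both directions. For the other 3, Edn1, Nos2 and Nos3, the interval reached past 1.5-fold, so a change of that size in at least 1 direction lay inside the interval.

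**Figure D1:**
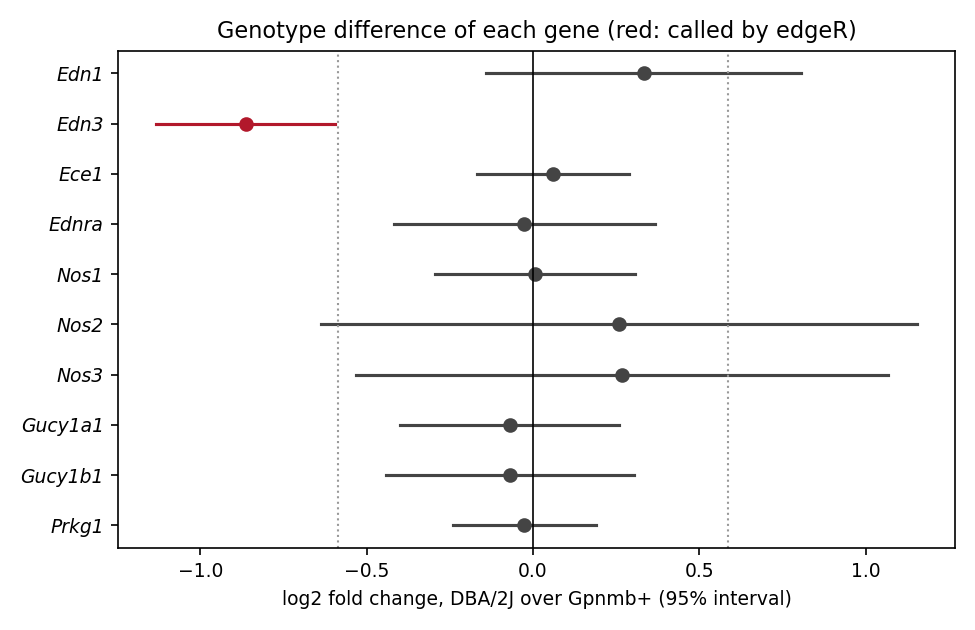
Log2 fold changes of the 10 genes, DBA/2J over Gpnmb+ (x axis), with bars for the 95% interval of the edgeR fit, a solid line at no change, dotted lines at 1.5-fold and the called gene in red. Edn3 sits at -0.86 with its whole interval below 0, and the bars of Nos2 and Nos3 are the widest.

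Edn3 (chromosome 2, 174602088 to 174625835) encodes the endothelin ligand known for its part in the development of pigment cells and enteric neurons through the type B receptor. Its level was 59.6, 57.7 and 70.2 CPM across DBA/2J pools 1 to 3, against 109 and 118.2 CPM across Gpnmb+ pools 1 and 2, the order of pools used throughout. Every DBA/2J pool was below both Gpnmb+ pools, and the gap between the groups was wider than the spread within either. The means were 62.5 ± 6.74 (SD, n = 3) and 113.6 ± 6.52 (SD, n = 2). The log2 fold change was -0.86 (SE 0.11, 95% interval -1.132 to -0.594, adjusted p = 0.0392 in edgeR). The counts behind it were 2651, 2475 and 3131 against 5532 and 5784. DESeq2 (adjusted p = 6.14e-08) and limma-voom (adjusted p = 0.0398) also called it. The edgeR call was lost when any one of the 5 pools was left out, with log2 fold changes between -0.954 and -0.802 and adjusted p between 0.0645 and 0.166.

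In bulk tissue, fewer cells of a type and less RNA per cell cannot be told apart. Markers of several cell types were read beside Edn3. For the marker counts here and below, the shares over all genes were 0.796% called in edgeR, 15.9% at an unadjusted p of at most 0.05 and 4.7% called by DESeq2. The 8 smooth muscle markers were all fitted lower, with 0 called in edgeR, 1 at an unadjusted p of at most 0.05 and 1 by DESeq2, and their sums of 765 to 902.4 and 862.5 to 1075 CPM overlapped. Of the pigment cell markers, 2 were fitted higher and 4 lower, with 1 called, Slc45a2. DESeq2 called 2, and 2 had an unadjusted p of at most 0.05. Their sums of 3381 to 4468 and 3627 to 4238 CPM also overlapped. The next 3 lists had higher sums in every DBA/2J pool. Of the nonpigmented ciliary epithelium markers, 6 were fitted higher and 1 lower, with Col9a1 and Six6 called. DESeq2 called 5, and 5 had an unadjusted p of at most 0.05. They summed to 792.3 to 1035 against 267.5 to 363.5 CPM. Of the Schlemm canal and lymphatic markers, 3 were fitted higher and 2 lower, with Reln called. DESeq2 called 1, and 4 had an unadjusted p of at most 0.05 (3 higher, 1 lower). These summed to 1063 to 1197 against 587.6 to 655 CPM. Trabecular meshwork markers (3 higher and 3 lower, 0 called in edgeR, 5 at an unadjusted p of at most 0.05, 2 by DESeq2) summed to 5575 to 6450 against 3489 to 4287 CPM. No marker of these lists was at 0 in all pools, and the part of cell content in the Edn3 result was not tested.

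Edn1 (chromosome 13, 42446301 to 42461466), the vasoconstrictor endothelin made largely by endothelium, was fitted in the opposite direction. Its levels were 7.42, 5.82 and 8.07 CPM in DBA/2J and 6.09 and 5.19 CPM in Gpnmb+. The pools overlapped, since DBA/2J pool 2 lay below Gpnmb+ pool 1. The log2 fold change was 0.33 (SE 0.19, adjusted p = 0.461 in edgeR), and the 95% interval of the fold change ran from 0.907 to 1.75. Edn2 (chromosome 4), the third ligand and not one of the 10 genes, was sparse, at 97, 80 and 22 counts for DBA/2J against 32 and 45 for Gpnmb+. Its DBA/2J pools spread over both sides of the Gpnmb+ pools, and its log2 fold change of 0.96 had an interval of -0.580 to 2.505 (adjusted p = 0.513 in edgeR).

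Levels of the 3 ligands can be set side by side once divided by exon length. On that scale Edn3 made up 76.2%, 79.3% and 82.8% of endothelin ligand RNA for DBA/2J against 90.3% and 91.4% for Gpnmb+. Edn1 made up 15.3%, 13.0% and 15.4% against 8.16% and 6.49%. Edn3 was the main ligand RNA in all 5 pools, and its share was smaller in every DBA/2J pool. The per-length ratio of Edn3 to Edn1 averaged 5.49 ± 0.583 (SD, n = 3) for DBA/2J against 12.6 ± 2.13 (SD, n = 2) for Gpnmb+. These shares contain the Edn3 difference itself and were given no test.

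**Figure D2:**
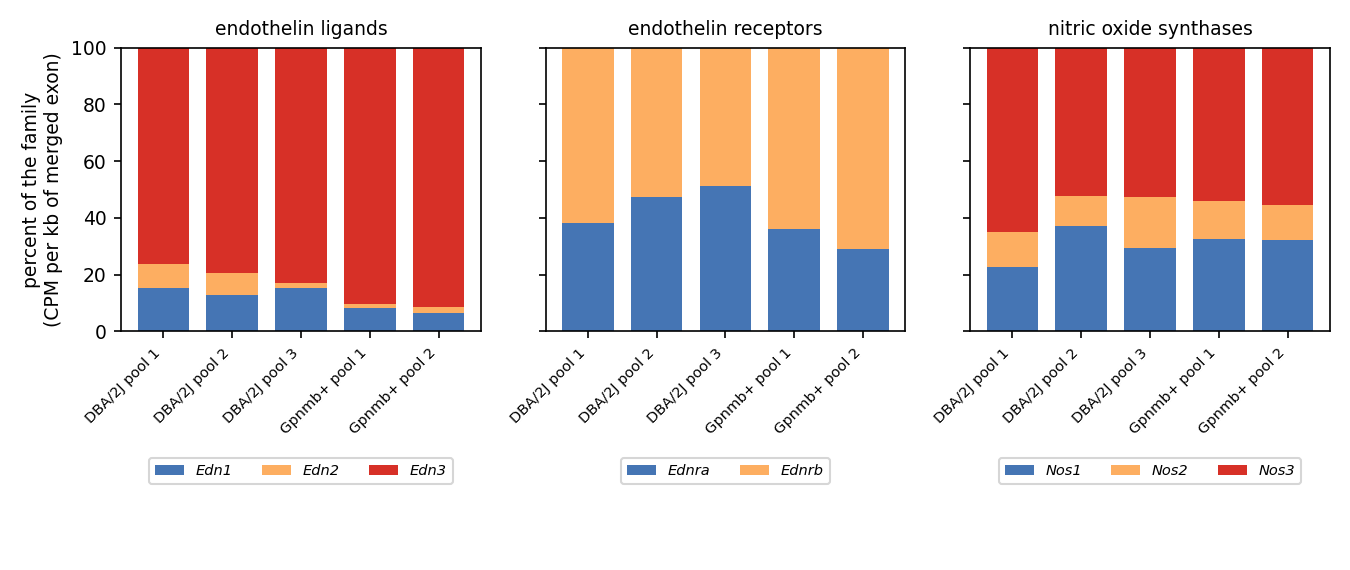
Stacked bars of the share of each member in its family in every pool, as a percent of the family's summed CPM per kilobase of merged exon (y axis), for endothelin ligands, endothelin receptors and nitric oxide synthases. Edn3 holds 76.2% to 82.8% of ligand RNA in DBA/2J pools and 90.3% to 91.4% in Gpnmb+ pools, and Nos3 holds 52.2% to 65.0% of synthase RNA.

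Ece1 (chromosome 4, 137589530 to 137692542), endothelin-converting enzyme 1, was level between genotypes. It had 305, 284.9 and 272.6 CPM in DBA/2J and 265.1 and 286.6 in Gpnmb+, with overlapping pools. The log2 fold change was 0.06 (SE 0.094, adjusted p = 0.805 in edgeR) and the fold interval 0.890 to 1.221. Ece2, the second converting enzyme, had 4 to 8 counts in each pool and was under the count minimum. Ednra (chromosome 8, 78386590 to 78451552), the type A receptor, had 61.3, 48.2 and 69.0 CPM in DBA/2J and 64.1 and 57.0 in Gpnmb+. The DBA/2J pools lay on both sides of the Gpnmb+ pools. Its log2 fold change was -0.03 (SE 0.161, adjusted p = 0.955 in edgeR), with a fold interval of 0.748 to 1.289. The exons of Ednra share 2452 bases (27.2%) with Gm45714 on the opposite strand, which had at most 1 count per pool. Reads there are uncertain, because how strand was counted is not stated.

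Ednrb (chromosome 14), the type B receptor and no member of the 10, did separate the pools. It had 49.2, 26.8 and 33.0 CPM in DBA/2J and 56.4 and 69.2 in Gpnmb+, all DBA/2J pools being lower, as for 34.5% of genes in one direction or the other. The log2 fold change of -0.79 (95% interval -1.411 to -0.166) did not pass the test (adjusted p = 0.227 in edgeR). Per length, Ednra made up 38.3%, 47.3% and 51.1% of receptor RNA in DBA/2J and 36.2% and 29.2% in Gpnmb+. The lowest DBA/2J share was only slightly above the higher Gpnmb+ share.

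None of the 3 nitric oxide synthases was called in edgeR, and none had an unadjusted p of at most 0.05 or was called by DESeq2 or limma-voom. Nos1 (chromosome 5, 117918971 to 118096905), the neuronal synthase, was at 11.6, 11.1 and 11.1 CPM in DBA/2J and 10.4 and 12.0 for Gpnmb+. Its group means were 11.26 ± 0.297 (SD, n = 3) and 11.22 ± 1.13 (SD, n = 2), and its log2 fold change was 0.005 (SE 0.123, adjusted p = 0.988 in edgeR) with a fold interval of 0.815 to 1.236. This was the smallest fold change among the 10 genes. Skeletal muscle, which also makes Nos1, had higher summed marker RNA in every DBA/2J pool (8 of 8 markers fitted higher, 0 called in edgeR, 2 at an unadjusted p of at most 0.05, 2 by DESeq2), with sums of 203.6 to 476 CPM against 128.6 to 195.5 CPM. Neuron markers (3 fitted higher, 4 lower, 0 called in edgeR, 2 at an unadjusted p of at most 0.05, 1 by DESeq2) summed to 67.2, 103.8 and 70.9 CPM against 60.1 and 137.7 CPM. Gpnmb+ pool 2, the pool with the most neuron marker RNA and the most Nos1, also stood apart in photoreceptor markers (5 of 5 fitted lower, 0 called in edgeR or DESeq2, 0 at an unadjusted p of at most 0.05), at 1760 CPM against 324.8 CPM for Gpnmb+ pool 1 and 533.3 to 790.3 CPM for DBA/2J. The part of these cells in the Nos1 level was not tested.

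Nos2 (chromosome 11, 78811613 to 78851080), the inducible synthase of activated immune cells, was the least abundant of the 10 per length. Its counts were 108, 52 and 117 for DBA/2J against 85 and 89 for Gpnmb+, or 2.43, 1.21 and 2.62 CPM against 1.68 and 1.82. The DBA/2J pools lay on both sides of the Gpnmb+ pools, and the fold interval of 0.643 to 2.224 was the widest of the 10 (log2 fold change 0.26, SE 0.367, adjusted p = 0.785 in edgeR). Macrophage markers (7 of 8 fitted higher, 0 called in edgeR, 2 at an unadjusted p of at most 0.05, 1 by DESeq2) summed to 773.2 to 1041 CPM in DBA/2J and 707.1 to 844.5 in Gpnmb+.

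Nos3 (chromosome 5, 24569787 to 24589475), the endothelial synthase, had 14.6, 6.85 and 8.70 CPM in DBA/2J and 7.57 and 9.12 in Gpnmb+. DBA/2J pool 1 stood 2.13-fold above DBA/2J pool 2, and the remaining DBA/2J pools were within or below the range of the Gpnmb+ pools. The log2 fold change was 0.27 (SE 0.328, adjusted p = 0.743 in edgeR), with a fold interval of 0.692 to 2.094, and it turned to -0.101 without DBA/2J pool 1. The exons of Nos3 share 1338 bases (26.7%) with Gm15587 and 297 bases (5.94%) with Atg9b, both on the opposite strand. Since no source here states how strand was counted, reads there cannot be assigned with certainty. Gm15587 was counted 2 to 4 times per pool. Atg9b was counted 57 to 67 times per DBA/2J pool and 105 and 117 times per Gpnmb+ pool, against 294 to 648 times for Nos3.

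Nos3 held the largest share of synthase RNA per length in every pool, 65.0%, 52.2% and 52.6% in DBA/2J and 53.9% and 55.4% in Gpnmb+. Endothelial markers (6 fitted higher and 6 lower, 0 called in edgeR or DESeq2, 4 at an unadjusted p of at most 0.05) summed to 573.8 to 742.3 CPM in DBA/2J and 611.0 to 662.7 in Gpnmb+, and the pool with the most Nos3 also had the most endothelial marker RNA. Relative to that sum, the log2 ratio of Nos3 was -5.67, -6.39 and -6.31 in DBA/2J and -6.45 and -6.07 in Gpnmb+. The group means of the ratio differed by 0.137 (exact permutation test over pools, two-sided p = 0.8, where 0.2 is the smallest p that 3 pools against 2 can give).

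Gucy1a1 and Gucy1b1 encode the alpha and beta subunits of soluble guanylate cyclase, the nitric oxide receptor, and are neighbours on chromosome 3 (81999733 to 82053216 and 81939312 to 81982022). Gucy1a1 had 24.8, 32.0 and 29.0 CPM in DBA/2J and 28.1 and 31.9 in Gpnmb+. Gucy1b1 had 12.4, 12.7 and 12.3 CPM in DBA/2J and 11.2 and 15.0 in Gpnmb+. Both overlapped between genotypes, and for Gucy1b1 all DBA/2J pools lay between the 2 Gpnmb+ pools. The log2 fold changes were both -0.07, with SE 0.135 for Gucy1a1 (adjusted p = 0.842 in edgeR) and 0.153 for Gucy1b1 (adjusted p = 0.861 in edgeR). Per length, the alpha to beta ratio was 0.809, 1.02 and 0.958 in DBA/2J and 1.02 and 0.863 in Gpnmb+, near 1 in every pool. The other alpha subunit, Gucy1a2, was at 7.62 to 8.73 CPM in all pools (log2 fold change 0.014, adjusted p = 0.971 in edgeR), and Gucy1b2 had a single count in 1 Gpnmb+ pool.

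Prkg1 (chromosome 19, 30541889 to 31742479), cGMP-dependent protein kinase 1, had the smallest standard error of the 10. It had 50.2, 50.9 and 55.2 CPM in DBA/2J and 55.0 and 51.1 in Gpnmb+, and both Gpnmb+ pools lay within the range of the DBA/2J pools. Its log2 fold change was -0.03 (SE 0.088, adjusted p = 0.917 in edgeR) and its fold interval, 0.847 to 1.139, was the narrowest of the 10. Prkg2, the second kinase gene, had 5.31, 2.77 and 2.89 CPM in DBA/2J and 2.09 and 2.13 in Gpnmb+, higher in every DBA/2J pool but not called (log2 fold change 0.795, adjusted p = 0.333 in edgeR). Prkg1 made up 84.8% of the kinase RNA per length in DBA/2J pool 1 and 91.5% to 93.9% in the other pools.

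**Figure D3:**
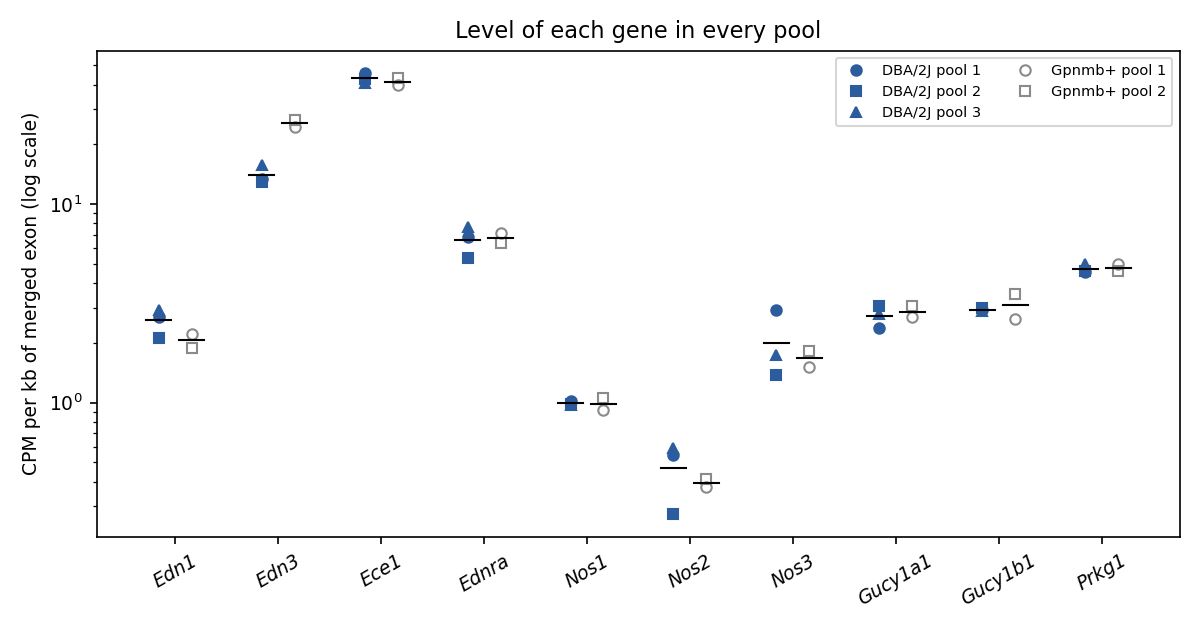
Level of each of the 10 genes in every pool, as CPM per kilobase of merged exon on a log y axis, with filled blue symbols for DBA/2J pools, open grey symbols for Gpnmb+ pools and black lines for group means. The Edn3 symbols of the genotypes do not overlap, at 13.0 to 15.8 for DBA/2J and 24.6 to 26.7 for Gpnmb+, and the symbols of each other gene do.

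Ednra, both cyclase subunits and Prkg1 are used by contractile cells, so their levels were also taken relative to summed smooth muscle and pericyte markers. With smooth muscle markers, the group means of the log2 ratios differed by 0.146 for Ednra, 0.11 for Gucy1a1, 0.13 for Gucy1b1 and 0.159 for Prkg1. With pericyte markers the differences were 0.004, -0.032, -0.012 and 0.017 in the same order. Over these 8 ratios and that of Nos3, exact permutation p-values ran from 0.6 to 1.0, and all 9 adjusted p-values were 1.0. With 3 pools against 2 the smallest possible p is 0.2, so this test could not reach 0.05 for any ratio and decides nothing about them. Pericyte markers (1 fitted higher, 5 lower, 0 called in edgeR or DESeq2, 0 at an unadjusted p of at most 0.05) summed to 707.6 to 749.5 CPM in DBA/2J and 695.9 to 810.4 in Gpnmb+.

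Levels of different genes were ordered as CPM per kilobase of merged exon, averaged over the 5 pools. Ece1 was highest at 42.5 (39.9 to 45.9 across pools), followed by Edn3 at 18.7 (13.0 to 26.7), Ednra at 6.66 (5.35 to 7.66) and Prkg1 at 4.74 (4.53 to 4.98). Gucy1b1 at 3.00, Gucy1a1 at 2.79, Edn1 at 2.38 and Nos3 at 1.87 came next, and each overlapped its neighbour in this order across pools. Nos1 at 0.990 (0.918 to 1.06) and Nos2 at 0.440 (0.273 to 0.591) were lowest. The ligand that differed was thus also the second most abundant RNA of the 10, whereas the 3 synthases had the 3 lowest means.

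The wider pathway was read from a list of 72 genes, of which 67 passed the count minimum and 5 did not (Ece2, Gucy1b2, Nppa, Nppc and Pde2a). Of the 67, 35 were fitted higher and 32 lower, and the median of their log2 fold changes was 0.005. Called were 1 gene that was higher, Mme, and 1 that was lower, Edn3, beside a background of 0.502% and 0.294% of genes. At an unadjusted p of at most 0.05 there were 19, 8 higher and 11 lower, beside 15.9% of all genes, and pools did not overlap for 30, beside 34.5%. Without the 10 genes, 57 were tested, 1 was called, 18 had an unadjusted p of at most 0.05 and 29 had pools that did not overlap.

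**Figure D4:**
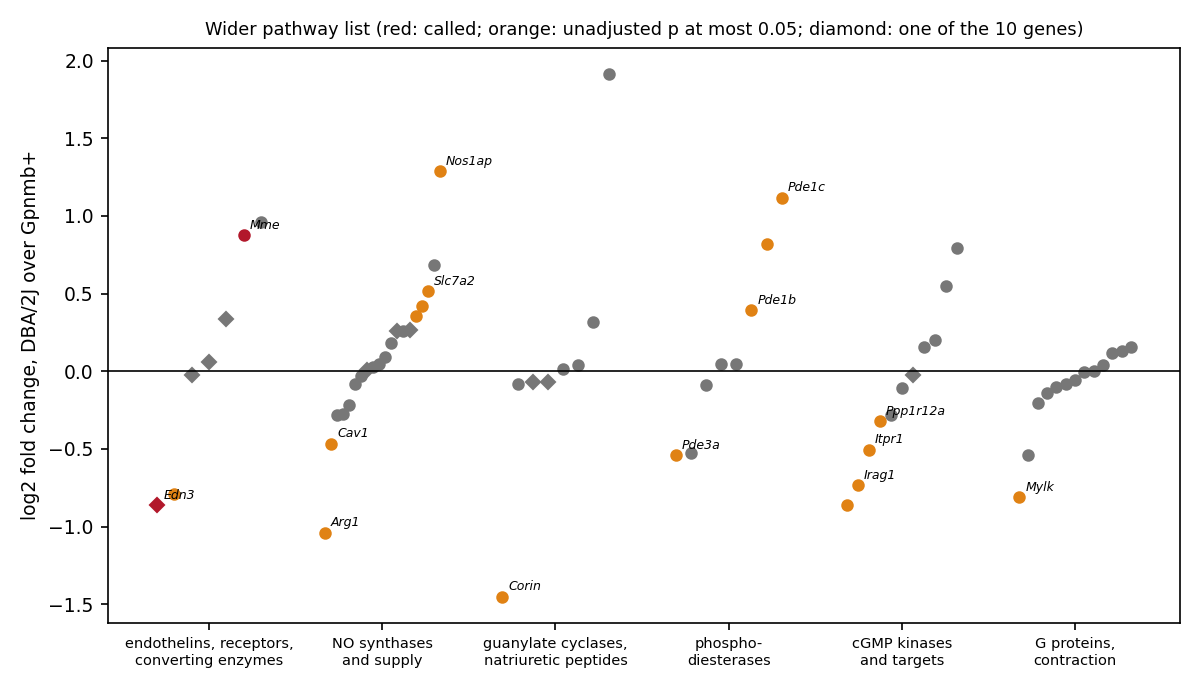
Log2 fold changes, DBA/2J over Gpnmb+ (y axis), of the 67 tested genes of the pathway list, 1 point a gene, grouped by role along the x axis, with called genes in red, genes with an unadjusted p of at most 0.05 in orange and the 10 genes as diamonds. Mme and Edn3 are the 2 red points, on opposite sides of 0, and each group spreads over both sides.

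Mme (chromosome 3, 63148889 to 63293451) encodes neprilysin, a membrane peptidase that degrades endothelins and natriuretic peptides, and was 1 of the 2 called genes. It had 96.9, 104.7 and 101.2 CPM in DBA/2J and 60.4 and 49.5 in Gpnmb+. All DBA/2J pools were higher, with a log2 fold change of 0.88 (95% interval 0.606 to 1.147, adjusted p = 0.0382 in edgeR). Left-out pools gave adjusted p between 0.0352 and 0.140 in edgeR, with the call kept only without Gpnmb+ pool 1. The summed markers of nonpigmented ciliary epithelium, Schlemm canal, trabecular meshwork and skeletal muscle were also higher in every DBA/2J pool. Their values and counts are given above, and their part was not tested.

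Of the synthases, their regulators and the genes that supply their substrate and cofactor, 20 were tested, 13 fitted higher and 7 lower, with 0 called in edgeR, 6 at an unadjusted p of at most 0.05, 2 by DESeq2 (Nos1ap and Arg1) and 1 by limma-voom (Nos1ap). Nos1ap (chromosome 1), an adaptor that binds the neuronal synthase, had 17.9, 17.6 and 19.8 CPM in DBA/2J and 9.01 and 6.07 in Gpnmb+. It was higher in every DBA/2J pool (log2 fold change 1.29, adjusted p = 0.0525 in edgeR) and both DESeq2 and limma-voom called it. Its exons share 16.8% of their bases with Gm7694 on the same strand, so reads there are uncertain, and Gm7694 had 2317 to 3110 counts per DBA/2J pool and 977 and 1452 per Gpnmb+ pool. Among phosphodiesterases, which break down cGMP, 8 genes were tested with 0 called in edgeR, 4 at an unadjusted p of at most 0.05 and 2 by DESeq2 (Pde1a and Pde1c). The shares over all genes beside both groups were 15.9% at that p and 4.7% called by DESeq2. Pde1c (chromosome 6, 56046784 to 56629472), a calcium- and calmodulin-dependent member, had 151.5, 152.5 and 174 CPM in DBA/2J and 87.7 and 59.1 in Gpnmb+ (log2 fold change 1.12, adjusted p = 0.0613 in edgeR). Pde3a (chromosome 6, 141194888 to 141453174), a phosphodiesterase that cGMP inhibits, had 24.1, 23.6 and 24.7 CPM against 32.7 and 37.4 (log2 fold change -0.54, adjusted p = 0.0782 in edgeR). Both separated the pools, in opposite directions, as 34.5% of all genes did in one direction or the other. Both lie on chromosome 6, as Gpnmb does, and so do Cav1, Itpr1 and Spr of the list. Pools separated for these genes too, with log2 fold changes of -0.466, -0.505 and 0.092, and none of them was called in edgeR. The part of chromosome position was not tested. None of the 10 genes is on chromosome 6.

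Of the guanylate cyclases and natriuretic peptide genes, 8 of 11 were tested, 4 fitted higher and 4 lower, with 0 called in edgeR, 1 at an unadjusted p of at most 0.05 and 1 by DESeq2 (Corin). Of the 11 genes of cGMP kinases and their targets, 4 were fitted higher and 7 lower, the latter including all 4 with an unadjusted p of at most 0.05, with 0 called in edgeR and 2 by DESeq2 (Irag1 and Kcnmb1). Of 13 genes for G proteins and the contractile machinery, 5 were fitted higher and 8 lower, with 0 called in edgeR, 1 at an unadjusted p of at most 0.05 and 1 by DESeq2, which was Mylk. The shares over all genes beside these groups were 15.9% at that p and 4.7% called by DESeq2. Mylk (chromosome 16), myosin light chain kinase, which starts smooth muscle contraction, had 175.8, 233.3 and 231.4 CPM in DBA/2J and 374.2 and 373.7 in Gpnmb+. It was lower in each DBA/2J pool (log2 fold change -0.81, adjusted p = 0.0721 in edgeR), beside smooth muscle markers that were all fitted lower with a median log2 fold change of -0.251, and the part of smooth muscle content was not tested.

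The tested genes whose log2 CPM, centred on its mean, came closest to Edn3 over the 5 pools were Rasgrp3, Gm9991 and Plxna2, with root mean square differences of 0.0401, 0.0604 and 0.0708. In all, 23 genes were within 0.1 of it. For Edn1, the gene with the smallest p among those fitted higher, they were Ak1, Stk36 and Serpinh1 at 0.025, 0.0251 and 0.0331, and 88 genes were within 0.1. With only 5 pools such likeness is a description.

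**Figure D5:**
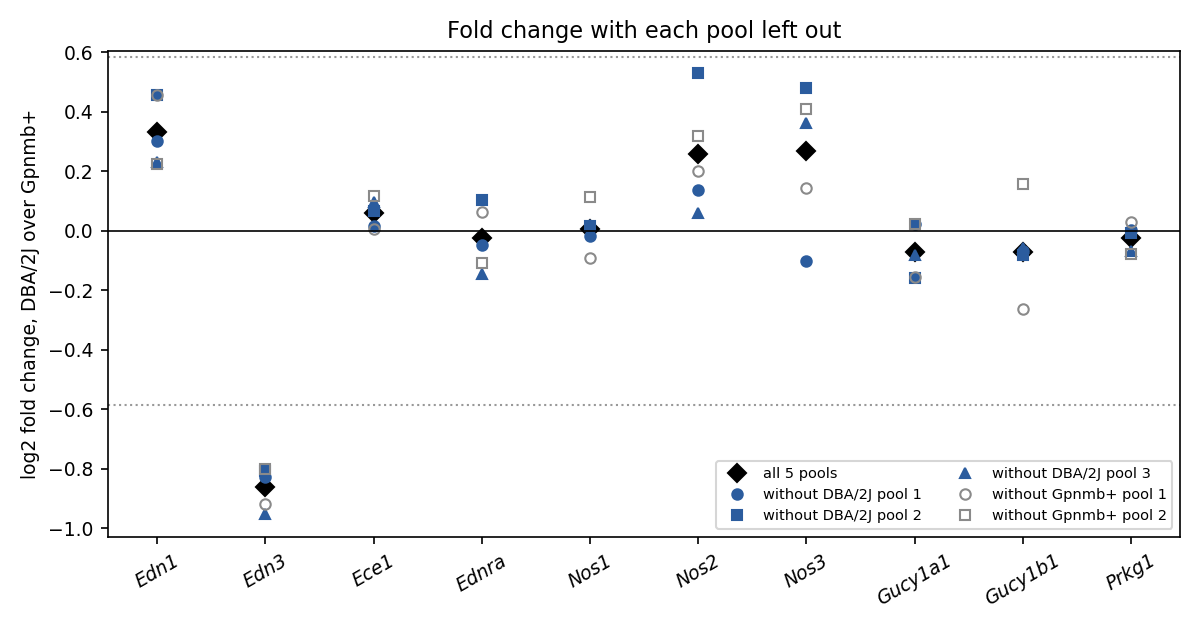
Log2 fold change of each of the 10 genes (y axis), DBA/2J over Gpnmb+, with all 5 pools (black diamonds) and with each pool left out in turn (other symbols), and dotted lines at 1.5-fold. Edn3 stays between -0.954 and -0.802, away from 0, whereas Ednra, Nos1, Nos3, Gucy1a1, Gucy1b1 and Prkg1 cross 0.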

How the data were processed

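RNA-seq libraries (poly(A) RNA, paired-end) were made from pooled iridocorneal angles. By the study's methods, fastp trimming and STAR alignment to GRCm39 came first, and the authors then deposited gene counts that sum only reads with a single alignment and are not normalized. How strand was treated in counting is not given in the sources used here. Of 56941 ids, 56323 matched GENCODE annotation on GRCm39, from which names, positions and exon lengths were taken, and Chil1 was found as Chi3l1. The 19713 genes that reached 10 counts in 1 pool or more were tested with edgeR 4.0.16 in R 4.3.3 (quasi-likelihood, 3 DBA/2J against 2 Gpnmb+ pools, no covariate), with Benjamini-Hochberg adjustment over all of them. Intervals are 95% intervals of the fit. DESeq2 1.42.0, limma-voom 3.58.1, other filters and scaling, a pool-number block and leaving out each pool were alternatives. The 10 genes and all lists were chosen with earlier results of these data known. Named beside the 10 genes are Gpnmb, every called pathway gene, the 2 uncalled pathway genes of smallest p in each direction, the other family members, the 3 genes of nearest profile, and Xist and Ddx3y. Cav1, Itpr1 and Spr are named as the other chromosome 6 genes of the pathway list. The edgeR fit was tested on simulated counts, with known fold changes larger than that of Edn3. Results for Schwann cell markers are not reported here.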

Additional observations from a re-analysis of the deposited data

How the results depend on the processing

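Edn3 kept its direction under all 11 alternatives, as did Edn1 and Ece1. In this paragraph, counts with unadjusted p-values kept the 1.5-fold minimum, unlike the shares at an unadjusted p alone given above. Over all genes, 157 were called in edgeR, 927 by the DESeq2 Wald test, 360 with no count filter and 1710 with unadjusted p-values, and between 1 and 217 when a pool was left out (6, 1 and 17 without DBA/2J pools 1, 2 and 3, and 217 and 2 without Gpnmb+ pools 1 and 2). With a Gpnmb+ pool left out, the lone pool is assumed to vary like the DBA/2J pools. Of the 10 genes, 1 was called under every alternative with all pools, and 0 in each fit without a DBA/2J pool. Among those alternatives, the replicate block (by pool number) drew nothing from DBA/2J pool 3, since no Gpnmb+ pool shares its number. Edn3 had a log2 fold change of -0.953 in the block fit. Without DBA/2J pool 3 it was -0.954, and Edn3 was not called. Of the pathway list, 2 genes were called in edgeR, 10 by DESeq2, 5 with no count filter, 11 with unadjusted p-values and 0 to 4 without a pool, the 4 without Gpnmb+ pool 1 being Mme, Nos1ap, Pde1a and Pde1c. Pool numbers are shared by 2 pairs, with correlations of deviations of 0.279 and 0.254, and nothing in the labels ties them to a litter or day. With only 2 Gpnmb+ pools their deviations mirror each other, so the swapped pairs gave -0.279 and -0.254. The measure therefore cannot show a pairing. The replicate block called 220 genes. From the pathway list it called Edn3 (adjusted p = 0.0342 in edgeR) and Arg1 but not Mme. These calls rest on the pools other than DBA/2J pool 3, as said above. The block turned the log2 fold change of Nos2 to -0.006, beside 0.061 without DBA/2J pool 3. Leaving out each pool gave log2 fold changes from -0.145 to 0.105 for Ednra, -0.091 to 0.112 for Nos1, 0.061 to 0.531 for Nos2, -0.101 to 0.48 for Nos3, -0.158 to 0.023 for Gucy1a1, -0.264 to 0.157 for Gucy1b1, -0.078 to 0.031 for Prkg1, 0.223 to 0.457 for Edn1 and 0.007 to 0.118 for Ece1. The genotype differences of the log2 ratios to marker sums, for which the permutation test could reach no threshold, ran from -0.089 to 0.33 for Nos3 to endothelium. To smooth muscle markers they ran from -0.042 to 0.318 for Ednra, -0.139 to 0.36 for Gucy1a1, -0.241 to 0.501 for Gucy1b1 and 0.043 to 0.265 for Prkg1. To pericyte markers they ran from -0.191 to 0.199, -0.115 to 0.046, -0.113 to 0.09 and -0.146 to 0.181 in the same order. With the mean of the markers' log2 CPM, the pericyte ratios of Gucy1a1 and Gucy1b1 turned to 0.018 and 0.038. The cause of these shifts was not tested.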

Other observations

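Outside the rule for named genes, and chosen after their values were seen, several pathway genes differed with an unadjusted p of at most 0.05 but were not called in edgeR with Benjamini-Hochberg adjustment. Corin, the protease that activates atrial natriuretic peptide, had a log2 fold change of -1.45 (adjusted p = 0.111 in edgeR), and Arg1, an arginase that uses the synthases' substrate, of -1.04 (adjusted p = 0.128 in edgeR). Irag1 and Kcnmb1, a substrate of the cGMP kinase and a subunit of the calcium-activated potassium channel, had log2 fold changes of -0.73 and -0.86 (adjusted p = 0.144 and 0.18 in edgeR). All 4 were called by DESeq2. Pde5a, a phosphodiesterase specific for cGMP, had a log2 fold change of 0.046 (adjusted p = 0.948 in edgeR).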
